A study of Mus musculus with 12 samples.

Results

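The collagen genes were taken as every gene whose symbol reads Col, a number, the letter a and a number, which are the genes for the alpha chains that make up collagen proteins. The rule used names alone and found 44 members among the 24062 genes listed for each library. Genes with similar names that encode no collagen chain, such as Colq, the Colec genes and Col4a3bp, were not taken. RNA was sequenced from brain and spleen of male C57BL/6 mice at 10 weeks of age, in 3 Norad-/- and 3 Norad+/+ libraries per tissue, 12 libraries in all. Norad is a cytoplasmic long noncoding RNA that binds PUMILIO proteins, which repress the mRNAs they bind. Norad-/- mice lack the Norad locus, which was deleted with CRISPR/Cas9 and a pair of guides in C57BL/6J oocytes, while Norad+/+ mice carry it intact, and no other allele or agent was used in these libraries. Several independent Norad-/- lines were bred, and which of them gave these libraries is not stated in the sources used here. Levels are FPKM, fragments per kilobase of transcript scaled to the mapped reads of the library, so that levels of different genes can be set side by side per length.

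Collagen chains are made in the endoplasmic reticulum, hydroxylated, wound into trimers, secreted and crosslinked in the matrix. Fibril-forming collagens, led by type I and type III, give tissues tensile strength, type IV chains form the sheet of every basement membrane, type VI chains form beaded filaments around cells, and FACIT collagens sit on the surface of fibrils. In spleen the reticular fibers, the capsule and the vessel walls hold most collagen. The brain has little interstitial collagen outside the meninges and the vascular basement membranes, but some neurons make collagens that span their membrane or are secreted at synapses.

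Sequences are shown for the type IV gene pair because Col4a1 and Col4a2, the chains found in nearly all basement membranes, are transcribed away from each other from a shared control region. In GRCm38 Col4a1 lies on the minus strand at chr8:11198423-11312826 and Col4a2 on the plus strand at chr8:11312805-11449287, and their annotated start sites are 21 bases apart. Each start site lies inside the other gene, so the annotated genes overlap at their starts, with no gap between them. The RefSeq windows below (GRCm38.p6) run from 250 bases before to 50 bases after each start site, and 78 of their 300 bases are shared. Capitals mark the GC box GGGCGG and the CCAAT box, each on either strand, and no marked motif overlaps another.
Col4a1: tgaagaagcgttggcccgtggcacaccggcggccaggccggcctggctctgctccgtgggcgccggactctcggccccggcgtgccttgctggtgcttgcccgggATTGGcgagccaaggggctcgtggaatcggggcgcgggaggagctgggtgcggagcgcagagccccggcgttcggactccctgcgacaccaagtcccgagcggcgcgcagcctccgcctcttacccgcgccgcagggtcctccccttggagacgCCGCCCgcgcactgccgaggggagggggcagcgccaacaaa
Col4a2: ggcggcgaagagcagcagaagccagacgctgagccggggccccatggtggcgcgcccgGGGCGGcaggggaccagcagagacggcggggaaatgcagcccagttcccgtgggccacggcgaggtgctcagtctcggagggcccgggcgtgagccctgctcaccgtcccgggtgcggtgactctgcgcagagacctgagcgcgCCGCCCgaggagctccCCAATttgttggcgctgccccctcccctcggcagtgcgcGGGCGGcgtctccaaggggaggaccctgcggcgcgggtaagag

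The Col4a1 window (chr8:11312777-11313076) held 1 GC box and 1 CCAAT box, and the Col4a2 window (chr8:11312555-11312854) held 3 GC boxes and 1 CCAAT box. The GC box of the Col4a1 window lies in the shared bases and is the last GC box of the Col4a2 window, read on the other strand. Promoter windows were matched for 35 of the 44 members, 38 windows in all. The GC box was present in 60.5% of these windows, against 35.7% of all 32851 windows of the same length. The CCAAT box was present in 34.2%, against 37.4% of all windows, and the TATA box TATAAA, also counted on both strands, in 13.2%, against 13.6%. The GC box was thus the motif of these 3 whose share was farther from that of all windows, and the shares are descriptions of letters, not of binding.

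Because Norad binds PUMILIO proteins, the PUMILIO response element (PRE), TGTANATA on the transcribed strand, was searched in 1 annotated 3' UTR per gene, the longest. At least 1 PRE was present in 12 of the 44 members (27.3%), against 24.0% of the 19266 genes in the table with an annotated 3' UTR. At least 2 were present in 2 members (4.55%), against 7.49%. Col25a1 held 3 and Col4a3 held 2. The PREs of the 3 members that carried one and also stood out between genotypes below are shown here as 30-base sites in GRCm38, with the PRE in capitals.
Col25a1, chr3:130598399-130598428, plus strand: tggactttgtgTGTATATAtctgctagctt
Col25a1, chr3:130599515-130599544, plus strand: tatctttccacTGTACATAtggcaaaacct
Col25a1, chr3:130599548-130599577, plus strand: catctcggtagTGTAAATAtttaaaagatt
Col5a1, chr2:28039217-28039246, plus strand: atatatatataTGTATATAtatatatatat
Col5a2, chr1:45375950-45375979, minus strand: tgcatcagcttTGTACATAcgatctgaagt

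The Col5a1 site lies inside a run of alternating a and t. Col4a1, Col4a2, Col14a1, Col7a1 and Col19a1, described below, held no PRE in this UTR.

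The labels were checked against Norad itself, which was at or below 0.0173 FPKM in all 6 Norad-/- libraries, against 206, 259 and 635 FPKM in Norad+/+ brain and 62.0, 42.9 and 56.3 FPKM in Norad+/+ spleen. Depth, estimated from the FPKM of 1 read, was 28.4 to 36.7 M reads per library. Norad+/+ brain replicate 3 and Norad+/+ spleen replicate 3 stood apart from their tissue, with median Spearman correlations of 0.949 (others 0.973 to 0.979) and 0.948 (others 0.961 to 0.971). Norad-/- brain replicate 3 held pituitary markers at a summed 1342 FPKM, against at most 1.48 FPKM in the other brain libraries, and Norad+/+ spleen replicate 3 held pancreatic acinar markers at a summed 488 FPKM, against at most 11.98 FPKM. The tissue labels fitted their markers. Neuron markers summed to 1836 to 2282 FPKM in brain and 3.36 to 19.6 FPKM in spleen, and lymphocyte markers to 1262 to 1720 FPKM in spleen and 3.31 to 6.22 FPKM in brain. All 15 meningeal cell markers averaged at least 0.1 FPKM in brain, as did all 10 fibroblast markers in both tissues.

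In spleen, collagen RNA was dominated by a few fibril-forming and basement membrane chains. Col1a2, a chain of type I collagen, ranked first at a mean of 24.3 FPKM over the 6 libraries, followed by Col4a1 (20.1), Col3a1 (18.5), which forms reticular fibers with type I, and Col4a2 (18.3). Their ranges overlapped from neighbor to neighbor along that order. Col14a1, a FACIT collagen that regulates fibril size, averaged 10.8 FPKM, Col1a1 10.5 FPKM and Col6a1 8.95 FPKM, and the top 8 members held 73.5% of all collagen FPKM. Another 7 members averaged under 0.1 FPKM, among them the cartilage chain Col2a1 (0.0124 FPKM), the neuronal chain Col25a1 (0.03003 FPKM) and Col9a1, which was listed at 0 in every spleen library.

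Brain had a flatter and different order. Col6a1, a chain of the type VI filament, was the highest at a mean of 14.2 FPKM, with Col4a2 at 10.5 FPKM, Col25a1 at 9.09 FPKM and Col4a1 at 6.57 FPKM. Col25a1 encodes a membrane-spanning collagen of neurons whose shed ectodomain is found in amyloid plaques. Col9a3, a FACIT chain best known from cartilage, averaged 5.14 FPKM, and the top 8 members together held 55.8%. The fibril-forming chains that led in spleen were low, with means of 3.65 FPKM for Col1a2, 2.16 FPKM for Col1a1 and 1.11 FPKM for Col3a1. The name given to these genes, collagens of stroma and meninges, thus described only part of what the brain libraries held, since a neuronal collagen ranked the third.

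**Figure D1:**
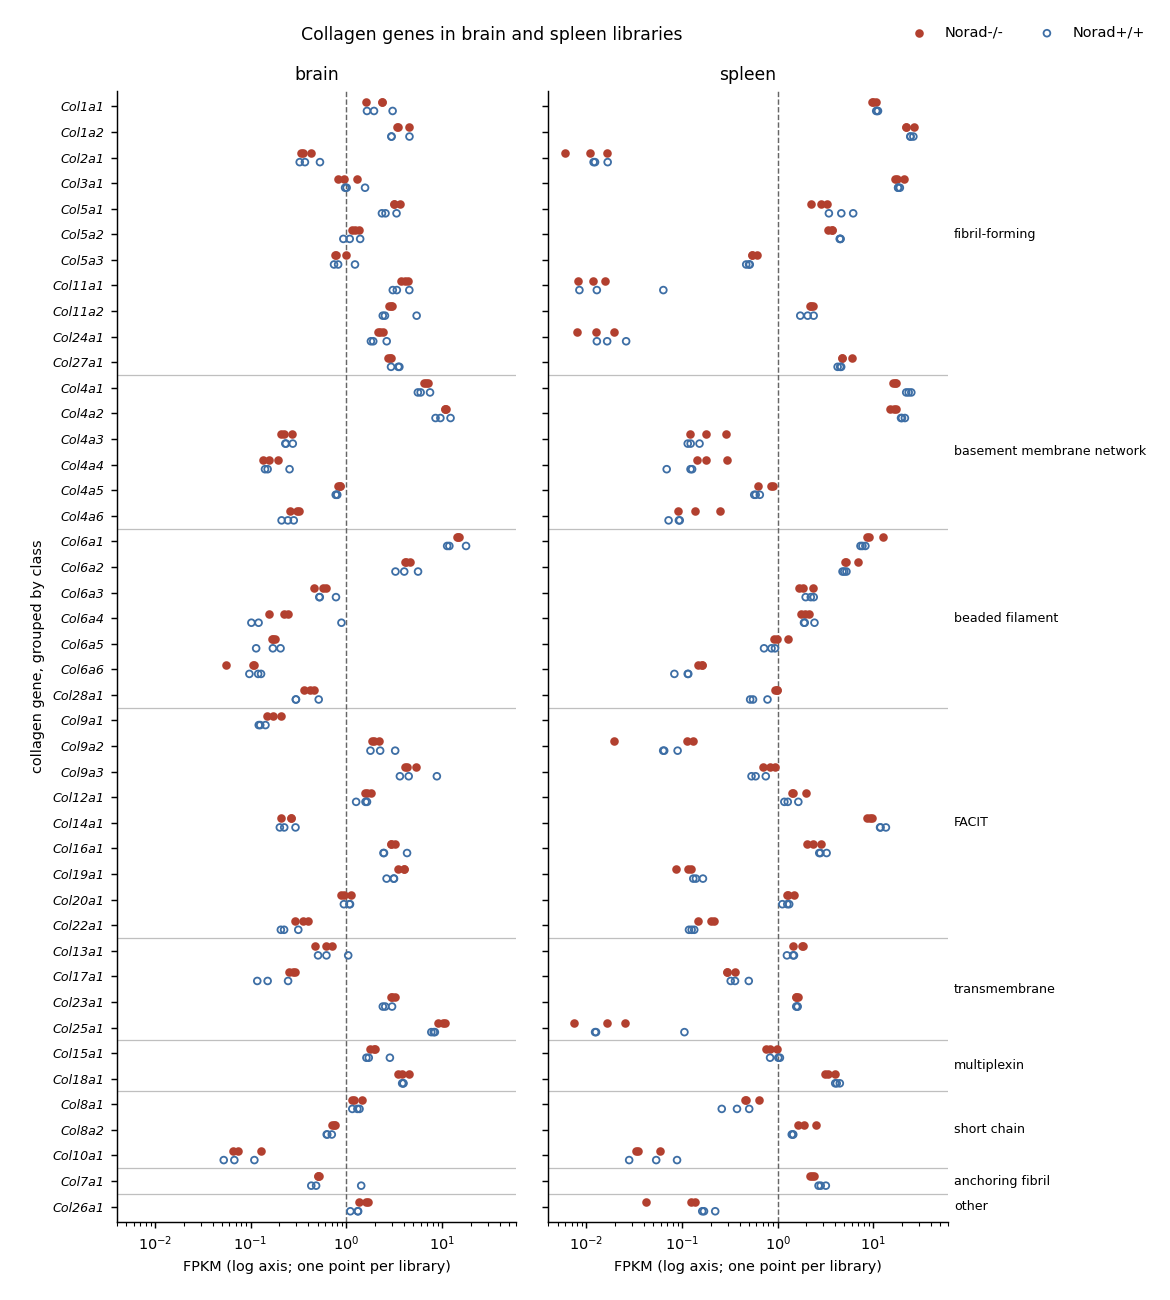
FPKM of the 44 collagen genes on a log axis in brain (left) and spleen (right), grouped by class, with filled points for the 3 Norad-/- libraries and open points for the 3 Norad+/+ libraries of each gene. The dashed line is the mean of 1 FPKM needed for a gene to be tested, and Col9a1 in spleen, listed at 0, is not drawn. Col1a2, Col3a1 and Col14a1 sit far to the right in spleen, and Col25a1, Col11a1 and Col24a1 lie above 1 FPKM only in brain.

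The tables of the 2 tissues were made separately, so levels across them are set side by side without a test. All 6 brain libraries lay above all 6 spleen libraries for 14 members, the reverse held for 17, and the ranges of 13 overlapped. Col25a1 ranged from 7.74 to 10.8 FPKM in brain and from 0.00743 to 0.106 FPKM in spleen. Col11a1, a minor fibril chain, ranged from 3.06 to 4.56 FPKM in brain and from 0.00808 to 0.0638 FPKM in spleen. Col14a1 ran the other way, at 8.70 to 13.6 FPKM in spleen and 0.202 to 0.294 FPKM in brain. Col3a1 was at 17.01 to 21.1 FPKM in spleen and 0.819 to 1.57 FPKM in brain. Among the members further apart, the cartilage chain Col9a2 averaged 2.22 FPKM in brain and 0.0803 FPKM in spleen. The composition of the type IV pair also differed, with a Col4a1 to Col4a2 ratio of 0.982 to 1.17 in spleen and 0.601 to 0.665 in brain.

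Genotypes were compared within each tissue with limma on log2(FPKM + 0.1) for genes that averaged at least 1 FPKM over the 6 libraries, and fold changes below are log2 values of Norad-/- over Norad+/+. The filter passed 22 members in spleen and 25 in brain, of which 16 passed in both tissues, and 13 passed in neither. A p adjusted over all genes tested had to fall below 0.05.

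In Norad-/- spleen Col4a1, Col4a2, Col14a1, Col5a1, Col5a2 and Col7a1 were lower than in Norad+/+ spleen, while the main fibril chains Col1a2 and Col3a1 overlapped between genotypes and Col6a1 and Col8a2 were higher. None of these differences passed the adjusted threshold, and in bulk RNA fewer cells of a type cannot be told apart from less RNA per cell. Of the 22 members tested in spleen, 0 were called by limma (0.0323% of the 12397 genes tested were called, and the smallest adjusted p of a member was 0.138). At an unadjusted p under 0.05, 1 member was higher (background 7.42% of genes tested) and 6 were lower (background 13.6%). The groups did not overlap for 3 members that were higher (background 11.6%) and for 8 that were lower (background 14.9%). The median log2 fold change was -0.09 over the members and -0.02 over all genes tested. After rescaling to TPM these medians were 0.03 and 0.10. At an unadjusted p under 0.05, 2 members were then higher and 3 lower, against 1529 and 1142 of the 12397 genes. After quantile normalization 4 members were higher and 4 lower, against 1611 and 1238 genes. Rescaling to TPM brought Col4a2, Col5a2 and Col7a1, described below, to -0.20, -0.20 and -0.22, with an unadjusted p above 0.05.

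Col4a1 gave the smallest p of any member. It stood at 15.9, 16.9 and 17.4 FPKM in Norad-/- spleen, against 22.1, 23.4 and 25.0 FPKM in Norad+/+ spleen. The highest Norad-/- library thus lay well below the lowest Norad+/+ library. Its log2 fold change was -0.49 (SE 0.08, 95% interval -0.69 to -0.29, adjusted p = 0.138 by limma), and 71 genes of the 12397 had a p as small or smaller, itself included. With any library left out it stayed between -0.53 and -0.44, with an unadjusted p under 0.05 each time.

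Col4a2, its partner in the trimer and on the chromosome, was at 15.0, 17.2 and 16.7 FPKM in Norad-/- spleen and 19.5, 19.95 and 21.4 FPKM in Norad+/+ spleen. The groups again did not overlap, and the log2 fold change was -0.32 (SE 0.09, adjusted p = 0.176 by limma). The difference was larger for Col4a1 than for Col4a2 in every pairing of libraries, as the ratio of the chains shows. Col4a1 over Col4a2 was 1.06, 0.982 and 1.04 in Norad-/- spleen, against 1.13, 1.17 and 1.17 in Norad+/+ spleen. Such a ratio does not depend on how a library is scaled. The remaining type IV chains, which serve specialized membranes such as that of the kidney glomerulus, averaged at most 0.697 FPKM (Col4a5) in spleen and did not pass the filter. Fitted without it, all 4 lay above 0, opposite to Col4a1 and Col4a2. Col4a4 had 0.1801, 0.298 and 0.142 FPKM in Norad-/- spleen and 0.123, 0.127 and 0.0691 FPKM in Norad+/+ spleen, without overlap (log2 fold change 0.55, adjusted p = 0.319 by limma). The groups of Col4a6 (0.43), Col4a5 (0.33) and Col4a3 (0.33) overlapped.

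**Figure D2:**
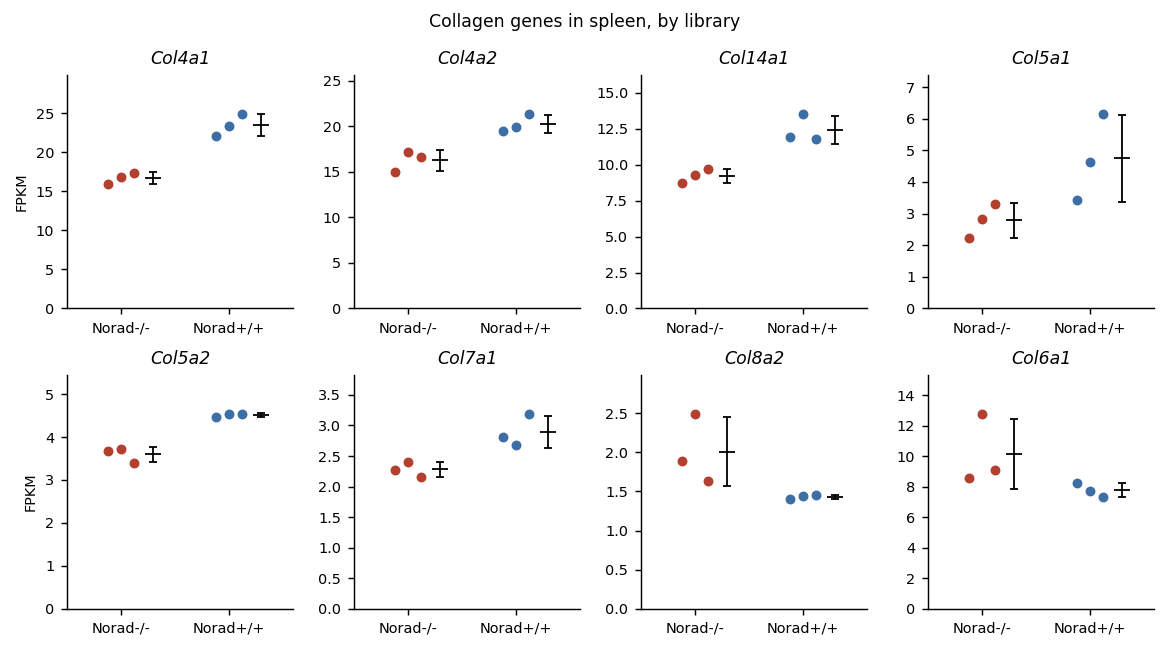
FPKM in each spleen library for 8 collagen genes, with the 3 Norad-/- libraries left of the 3 Norad+/+ libraries and the group mean with its SD as a black bar. The Norad-/- points lie below every Norad+/+ point for Col4a1, Col4a2, Col14a1, Col5a1, Col5a2 and Col7a1, and above every Norad+/+ point for Col8a2 and Col6a1.

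Among the FACIT collagens of spleen, Col14a1 (chr15:55307750-55520803) had 8.70, 9.26 and 9.69 FPKM in Norad-/- spleen, against 11.9, 13.6 and 11.8 FPKM in Norad+/+ spleen. The gap between the groups exceeded the range within either group. The log2 fold change was -0.42 (SE 0.09, adjusted p = 0.152 by limma), between -0.46 and -0.36 with any library left out, with an unadjusted p under 0.05 each time. Col16a1, Col12a1 and Col20a1, the other FACIT chains tested, had overlapping groups, with log2 fold changes of -0.29, 0.22 and 0.11.

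Both type V chains, which start and limit the growth of type I fibrils, were lower in Norad-/- spleen. Col5a2 (chr1:45374321-45503282) had 3.68, 3.72 and 3.39 FPKM in Norad-/- spleen and 4.46, 4.54 and 4.53 FPKM in Norad+/+ spleen, a log2 fold change of -0.32 (SE 0.09, adjusted p = 0.176 by limma). The 3 Norad+/+ values were nearly equal and lay above all Norad-/- values. Col5a1 (chr2:27886425-28039514) had 2.22, 2.83 and 3.30 FPKM in Norad-/- spleen and 3.43, 4.63 and 6.16 FPKM in Norad+/+ spleen. Here the groups nearly touched, and the spread within Norad+/+ was wide. Its log2 fold change of -0.73 (SE 0.24, adjusted p = 0.196 by limma) was the lowest of the 22 members, and it lay between -0.94 and -0.52 with any library left out, not always at an unadjusted p under 0.05.

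The abundant fibril chains gave smaller values. Col1a2 had 21.9, 26.6 and 22.0 FPKM in Norad-/- spleen and 26.2, 24.6 and 24.4 FPKM in Norad+/+ spleen, with a log2 fold change of -0.10 (95% interval -0.34 to 0.14) that was 0.02 after rescaling to TPM. Col3a1 had 17.7, 21.1 and 17.01 FPKM in Norad-/- spleen and 19.0, 18.2 and 18.2 FPKM in Norad+/+ spleen (0.01, 95% interval -0.24 to 0.25). Col1a1 was at 9.69, 10.7 and 9.98 FPKM in Norad-/- spleen and 11.2, 10.7 and 10.96 FPKM in Norad+/+ spleen, a log2 fold change of -0.12 (adjusted p = 0.414 by limma) in which the groups were separated by less than the spread within them and which was 0.0042 after rescaling to TPM. Col1a1 over Col1a2 overlapped, at 0.402 to 0.453 in Norad-/- spleen and 0.427 to 0.450 in Norad+/+ spleen. Col3a1 over Col1a1 was 1.83, 1.97 and 1.704 in Norad-/- spleen, against 1.69, 1.696 and 1.66 in Norad+/+ spleen, so that the groups nearly touched. Col4a1 over Col1a2, a ratio of basement membrane to fibril chain, was 0.727, 0.636 and 0.789 in Norad-/- spleen, against 0.842, 0.954 and 1.03 in Norad+/+ spleen, with no overlap.

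Col7a1 (chr9:108953586-108984875), the chain of anchoring fibrils, had 2.28, 2.41 and 2.16 FPKM in Norad-/- spleen and 2.82, 2.68 and 3.19 FPKM in Norad+/+ spleen. The log2 fold change was -0.33 (SE 0.12, adjusted p = 0.203 by limma). Col18a1, a multiplexin of basement membranes whose end fragment is endostatin, had 3.10, 3.99 and 3.36 FPKM in Norad-/- spleen and 4.15, 3.999 and 4.47 FPKM in Norad+/+ spleen (log2 fold change -0.27, adjusted p = 0.266 by limma). Its groups nearly touched. Slc19a1 overlaps Col18a1 on the opposite strand, and whether the FPKM step used strand is not stated.

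The members that were higher in Norad-/- spleen were highest in Norad-/- replicate 2. Col8a2 (chr4:126286793-126314330), a short chain collagen of vessel walls and corneal membranes, had 1.89, 2.49 and 1.63 FPKM in Norad-/- spleen and 1.40, 1.44 and 1.46 FPKM in Norad+/+ spleen (log2 fold change 0.44, SE 0.18, adjusted p = 0.236 by limma). It stood between 0.28 and 0.57 with 1 library left out. Its partner Col8a1 averaged 0.450 FPKM and did not pass the filter. Col6a1 (chr10:76708792-76726168) had 8.54, 12.8 and 9.08 FPKM in Norad-/- spleen and 8.26, 7.70 and 7.35 FPKM in Norad+/+ spleen (0.36, adjusted p = 0.268 by limma). Without Norad-/- replicate 2, or without any 1 of the Norad+/+ replicates, 0 members were higher at an unadjusted p under 0.05, and Col6a1 ranged from 0.18 (without Norad-/- replicate 2) to 0.47 with 1 library left out. That replicate was the highest of the 6 spleen libraries at 17 of the 44 members.

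The type VI chains differed in proportion to each other between the genotypes. Col6a1 over Col6a2 was 1.69, 1.85 and 1.75 in Norad-/- spleen, against 1.58, 1.61 and 1.48 in Norad+/+ spleen. Col6a3 over Col6a2 ran the other way, at 0.330, 0.338 and 0.351 in Norad-/- spleen, against 0.455, 0.411 and 0.447 in Norad+/+ spleen. In brain the same ratios overlapped between genotypes. These ratios have no background share, and they reuse Col6a1, whose own values are given above. Col6a2 had 5.065, 6.90 and 5.20 FPKM in Norad-/- spleen and 5.24, 4.77 and 4.97 FPKM in Norad+/+ spleen (log2 fold change 0.18, adjusted p = 0.486 by limma). Col6a3 had 1.67, 2.33 and 1.83 FPKM in Norad-/- spleen and 2.38, 1.96 and 2.22 FPKM in Norad+/+ spleen (-0.17, adjusted p = 0.574 by limma). Both chains overlapped between genotypes. Col23a1, a membrane-spanning collagen, was the steadiest member in spleen, at 1.56 to 1.65 FPKM over all 6 libraries.

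**Figure D3:**
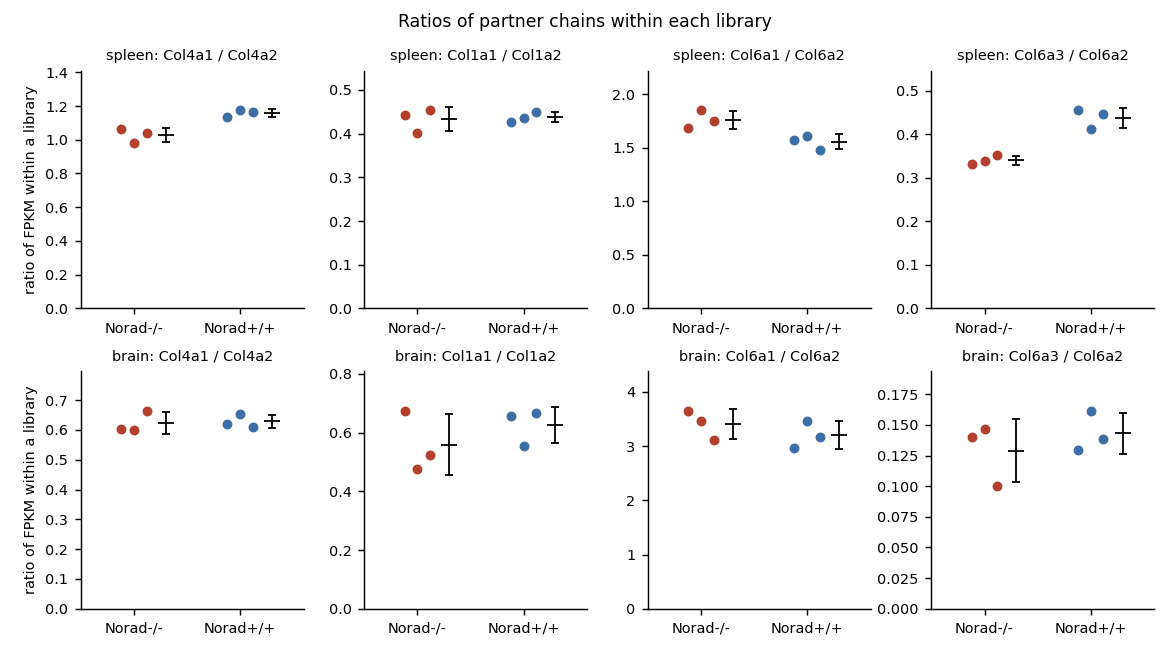
Ratio of FPKM of partner chains within each library in spleen (top row) and brain (bottom row), with the 3 Norad-/- libraries left of the 3 Norad+/+ libraries and the group mean with its SD as a black bar. In spleen the Norad-/- ratios of Col4a1 to Col4a2 lie at 0.982 to 1.06, below the Norad+/+ ratios of 1.13 to 1.17, and those of Col6a3 to Col6a2 lie at 0.330 to 0.351, below 0.411 to 0.455, while Col1a1 over Col1a2 overlaps. In brain the groups overlap in all 4 panels.

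Cell markers also differed among the same spleen libraries, though most of the summed lists overlapped between genotypes. Fibroblast markers (10 genes, all detected) summed to 73.1, 107 and 71.5 FPKM in Norad-/- spleen and 64.9, 57.0 and 52.6 FPKM in Norad+/+ spleen. Of the 7 tested, 2 were higher and 1 was lower at an unadjusted p under 0.05. The separation of the sums rested on Dcn, which is also in the proteoglycan list below. Without Dcn, a sum taken after its values were seen, the rest was at 32.2, 44.3 and 30.7 FPKM in Norad-/- spleen and 28.5, 36.7 and 33.2 FPKM in Norad+/+ spleen, which overlapped. Endothelial markers, of the cells that share a basement membrane with pericytes, summed to 127, 131 and 125 FPKM in Norad-/- spleen and 132, 125 and 124 FPKM in Norad+/+ spleen, which overlapped, and 2 of 8 were lower at an unadjusted p under 0.05. Smooth muscle markers summed to 281, 359 and 204 FPKM in Norad-/- spleen and 188, 184 and 233 FPKM in Norad+/+ spleen, highest in the Norad-/- replicate that was also highest at Col6a1 and Col8a2.

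Red cell precursor markers differed more from library to library. They summed to 2200, 2042 and 9841 FPKM in Norad-/- spleen and 6368, 16958 and 15486 FPKM in Norad+/+ spleen, and 11 of 12 were lower at an unadjusted p under 0.05. Megakaryocyte markers summed to 86.9, 71.2 and 213 FPKM in Norad-/- spleen and 165, 308 and 239 FPKM in Norad+/+ spleen. Lymphocyte markers summed to 1667, 1720 and 1510 FPKM in Norad-/- spleen and 1486, 1262 and 1296 FPKM in Norad+/+ spleen. The red cell precursor and megakaryocyte sums overlapped between genotypes, and the lymphocyte sums did not. Norad-/- replicate 3, the Norad-/- library with the most precursor RNA, had the highest Norad-/- values of Col4a1, Col14a1 and Col5a1 and the lowest of Col5a2 and Col7a1, and lay between the others at Col4a2. Without that library 93 of the 12397 genes and still 0 members were called, and the smallest adjusted p of a member was 0.0816 by limma. The part of cell makeup in the collagen differences was not tested.

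In Norad-/- brain a pair of neuronal or secreted minor collagens, Col19a1 and Col25a1, was higher than in Norad+/+ brain at an unadjusted p under 0.05, and no member was lower. Of the 25 members tested in brain, 0 were called by limma (0.0153% of the 13051 genes tested were called, and the smallest adjusted p of a member was 0.710). The 2 higher members stand against a background of 3.73% of genes, and the 0 lower members against 2.89%. The groups did not overlap for 3 members that were higher (background 10.6%) and 1 that was lower (background 6.56%). The median log2 fold change was 0.10 over the members and 0.02 over all genes tested.

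Col19a1 (chr1:24261890-24587472), a FACIT collagen whose fragment acts in synapse formation in mouse hippocampus, had 3.97, 4.04 and 3.47 FPKM in Norad-/- brain and 3.15, 3.13 and 2.64 FPKM in Norad+/+ brain. Every Norad-/- library exceeded every Norad+/+ library. The log2 fold change was 0.36 (SE 0.12, 95% interval 0.07 to 0.64, adjusted p = 0.710 by limma). In spleen it averaged 0.127 FPKM and did not pass the filter.

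Col25a1 (chr3:130131501-130599877), whose 3' UTR holds the 3 PREs shown above, had 10.3, 10.8 and 8.997 FPKM in Norad-/- brain and 8.43, 8.20 and 7.74 FPKM in Norad+/+ brain. The log2 fold change was 0.30 (SE 0.10, adjusted p = 0.710 by limma), and it ranged from 0.25 to 0.38 with any library left out. Without Norad-/- replicate 1, or without Norad-/- replicate 2, 0 members of the 25 had an unadjusted p under 0.05. Col26a1 (chr5:136741759-136883209), known from mouse testis and ovary, had 1.67, 1.62 and 1.37 FPKM in Norad-/- brain and 1.33, 1.10 and 1.32 FPKM in Norad+/+ brain (0.29, adjusted p = 0.718 by limma). For Col19a1, Col25a1 and Col26a1 alike, replicate 3 was the lowest Norad-/- library. Col27a1 (chr4:63214004-63334991), a fibril-forming chain of cartilage, went the other way, at 2.92, 2.85 and 2.73 FPKM in Norad-/- brain and 3.50, 2.93 and 3.59 FPKM in Norad+/+ brain. Its log2 fold change was -0.22 (adjusted p = 0.718 by limma), and the groups nearly touched.

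**Figure D4:**
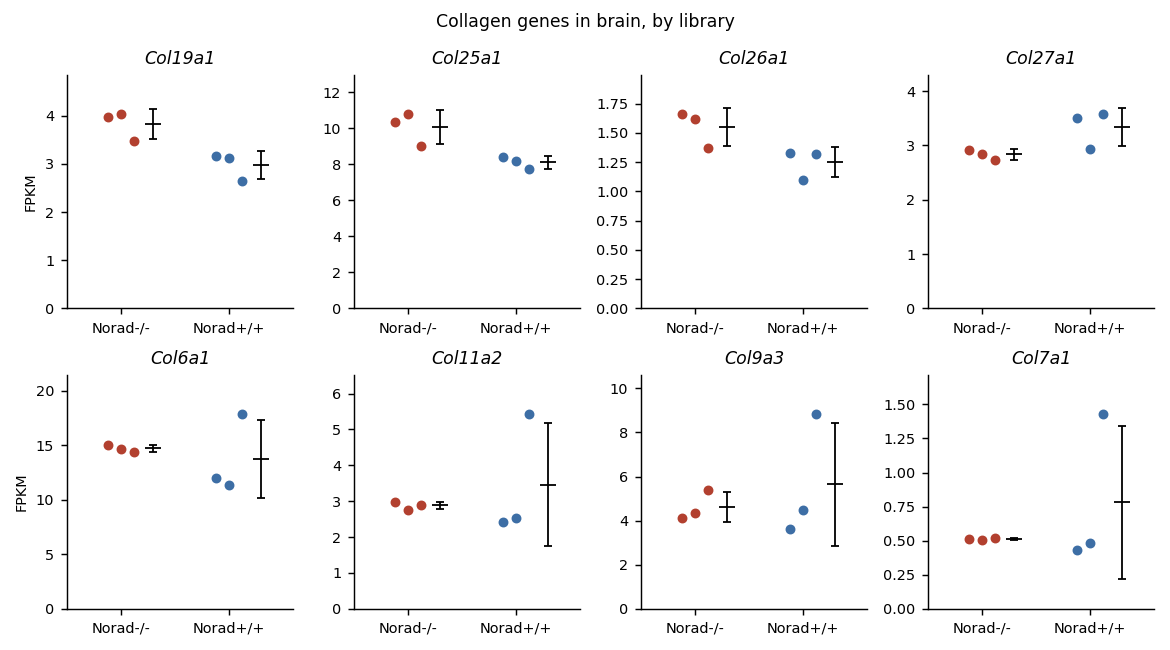
FPKM in each brain library for 8 collagen genes, with the 3 Norad-/- libraries left of the 3 Norad+/+ libraries and the group mean with its SD as a black bar. The groups do not overlap for Col19a1, Col25a1, Col26a1 and Col27a1 (top row), and for Col6a1, Col11a2, Col9a3 and Col7a1 (bottom row) Norad+/+ replicate 3 is the highest of the 6 libraries.

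The remaining brain comparisons turned on Norad+/+ replicate 3, which was the highest of the 6 brain libraries at 26 of the 44 members and at 16 of the 25 tested. Summed over the members, collagen RNA was 106, 104 and 106 FPKM in Norad-/- brain and 91.8, 87.7 and 124 FPKM in Norad+/+ brain. Both other Norad+/+ libraries thus lay below all Norad-/- libraries, and replicate 3 lay above them. Col6a1 had 15.0, 14.6 and 14.4 FPKM in Norad-/- brain and 11.9, 11.3 and 17.9 FPKM in Norad+/+ brain. Col4a2 had 11.1, 10.7 and 10.8 FPKM in Norad-/- brain and 9.63, 8.57 and 12.3 FPKM in Norad+/+ brain. Col9a3 had 4.13, 4.34 and 5.40 FPKM in Norad-/- brain and 3.63, 4.49 and 8.85 FPKM in Norad+/+ brain. In these 3 genes the same library stood at the top. The gap was wider at some low members, since Col7a1 had 0.509, 0.508 and 0.519 FPKM in Norad-/- brain and 0.430, 0.483 and 1.43 FPKM in Norad+/+ brain.

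Stromal markers in that library went both ways. Its meningeal cell markers summed to 199 FPKM and its fibroblast markers to 51.9 FPKM, within the ranges of the other 5 brain libraries (176 to 270 FPKM and 49.5 to 61.7 FPKM). Of these 25 markers Norad-/- replicate 3 was the highest of the 6 brain libraries at 16 and the lowest at 0. Norad+/+ replicate 3 was the highest at 4 and the lowest at 8. The fibroblast marker Igfbp6 stood at 17.6 FPKM in it and at most 10.5 FPKM in the other libraries, and the meningeal transporter gene Slc6a20a at 2.78 FPKM and at least 4.83 FPKM in the others. It had the lowest estimated depth of the 12 libraries. Its part in the result was measured by leaving it out. Without Norad+/+ replicate 3, 11 of the 25 members were higher at an unadjusted p under 0.05, against a background of 5.92% of genes in that fit, and 0 were lower. These were Col6a1 (log2 fold change 0.33), Col5a1, Col11a1, Col16a1, Col4a2, Col23a1, Col19a1, Col24a1, Col4a1, Col25a1 and Col11a2. Again 0 members were called by limma (smallest adjusted p = 0.272), and the median over the members was 0.24. The lone pair of Norad+/+ libraries then sets that group's mean. Since replicate 3 was the highest library at 16 of the 25 members tested, leaving it out had to raise the fold changes of those 16. The count of 11 thus follows in part from the choice of library and is not separate support for a difference. Without Norad+/+ replicate 1 instead, 2 members were higher and 0 lower at an unadjusted p under 0.05, against 388 and 391 of 13051 genes. Without Norad+/+ replicate 2 instead, 1 member was higher and 1 lower, against 546 and 437 genes.

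Other cells of the brain libraries differed as well. Meningeal cell markers summed to 178, 176 and 270 FPKM in Norad-/- brain and 247, 195 and 199 FPKM in Norad+/+ brain, with 5 of 12 tested higher and 1 lower at an unadjusted p under 0.05. Slc6a13, a transporter of meningeal fibroblasts, had 4.43, 4.37 and 5.09 FPKM in Norad-/- brain and 3.19, 3.27 and 2.62 FPKM in Norad+/+ brain, and the others that were higher were Ogn, Aldh1a2, Slc22a6 and Slc47a1. Foxc1, a transcription factor of meninges and pericytes, was the lower one, at 1.53, 1.77 and 2.45 FPKM in Norad-/- brain and 3.41, 2.47 and 3.88 FPKM in Norad+/+ brain. The meningeal list was thus divided, and these genes were named after their values were seen. Norad-/- replicate 3, which also held the pituitary markers, had the highest meningeal sum, and its part in these marker values was not tested. Endothelial markers summed to 67.2, 58.3 and 66.0 FPKM in Norad-/- brain and 83.6, 69.5 and 83.6 FPKM in Norad+/+ brain, and choroid plexus markers to 554, 533 and 538 FPKM in Norad-/- brain and 567, 802 and 803 FPKM in Norad+/+ brain. Neither overlapped between genotypes. The choroid plexus separation rested on Ttr, transthyretin, the only 1 of 10 markers lower at an unadjusted p under 0.05. Without Ttr, likewise taken out after its values were seen, the sums overlapped, at 188, 186 and 173 FPKM in Norad-/- brain and 194, 209 and 171 FPKM in Norad+/+ brain. The part of these cells in the collagen values was not tested.

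**Figure D5:**
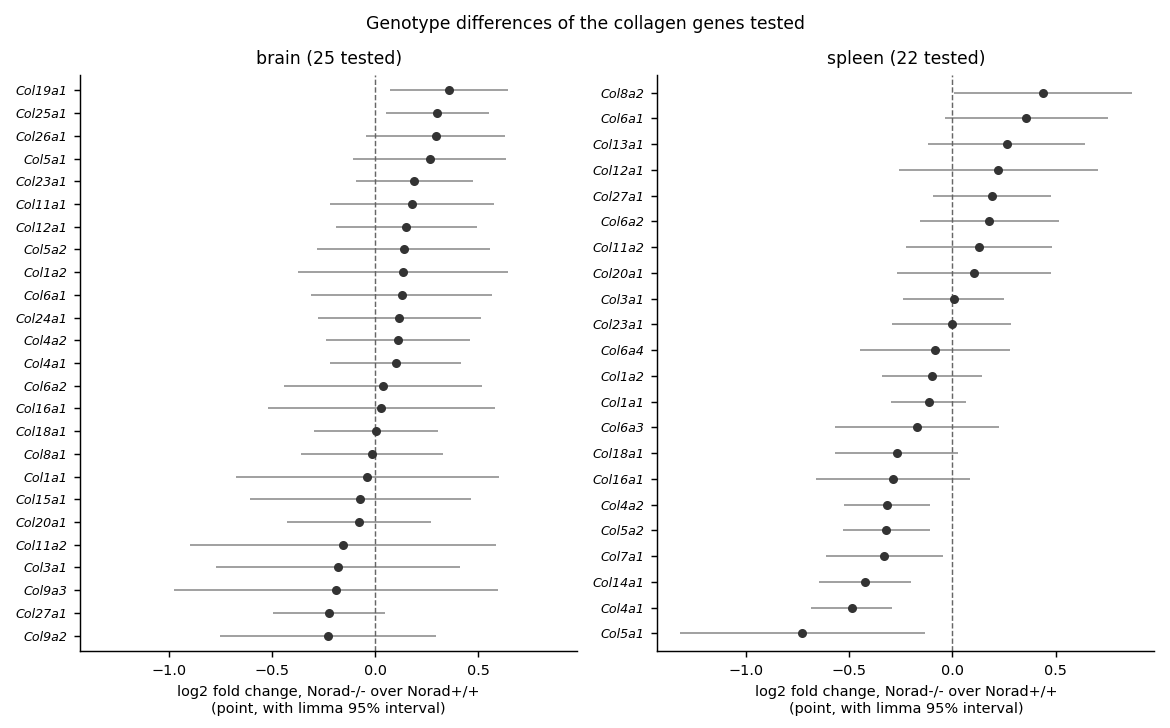
Log2 fold change of Norad-/- over Norad+/+ with its 95% interval from limma for the 25 collagen genes tested in brain (left) and the 22 tested in spleen (right), sorted by value. Intervals that miss 0 belong to Col19a1 and Col25a1 in brain and to Col8a2, Col4a2, Col5a2, Col7a1, Col14a1, Col4a1 and Col5a1 in spleen, before adjustment for the number of genes.

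Whether the genotype difference itself differed between the tissues was tested as an interaction, the spleen difference minus the brain difference, over the 10481 genes that passed the filter in both. Of the 16 members tested, 0 were called by limma (0.0191% of genes were called). At an unadjusted p under 0.05, 1 member was above 0 and 4 were below, against a background of 14.3% of genes in either direction. By direction, 446 of the 10481 genes were above 0 and 1058 below at that mark. Col4a1 (-0.59, SE 0.16, adjusted p = 0.214) and Col4a2 (-0.43, SE 0.17, adjusted p = 0.302) had overlapping groups in brain, with log2 fold changes there of 0.10 and 0.11 that were 0.0142 and -0.0018 at the lowest with 1 library left out. Col5a1 had -0.99 (SE 0.30, adjusted p = 0.241) and Col5a2 -0.46 (SE 0.19, adjusted p = 0.321), from brain differences of 0.26 and 0.14. The type IV and type V pairs thus carried all 4 values below 0 at that mark. At any p, 9 of the 16 members were below 0 and 7 above. Col27a1 was the only member above 0 at an unadjusted p under 0.05 (0.42, adjusted p = 0.288 by limma). It stood at 4.76, 5.93 and 4.70 FPKM in Norad-/- spleen and 4.50, 4.62 and 4.24 FPKM in Norad+/+ spleen. With 1 library left out, 2 to 7 members were below 0 at that mark, against 706 to 1422 of the 10481 genes. The 7 came without Norad+/+ brain replicate 3, when the smallest adjusted p of a member was 0.0708 by limma. Without that library 1291 genes were below 0 and 582 above at that mark. Leaving out that library also raised brain differences, as given above. The labels do not name the mice, so a mouse may have given both tissues, and the libraries entered this fit as independent.

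Genes that act on collagen chains were described from lists of the pathway, and 0 genes of any of these lists passed the adjusted threshold by limma in either tissue. The counts below at an unadjusted p under 0.05 stand against a background of all genes tested. In spleen 7.42% of genes were higher and 13.6% lower at that mark, and in brain 3.73% were higher and 2.89% lower. Of the enzymes and chaperones that modify and fold collagen, 1 of 17 tested in spleen was higher and 1 lower at an unadjusted p under 0.05. Serpinh1, which encodes the collagen-specific chaperone HSP47, was the lower one, with 23.2, 27.0 and 27.4 FPKM in Norad-/- spleen and 46.5, 35.0 and 40.6 FPKM in Norad+/+ spleen (log2 fold change -0.64, adjusted p = 0.141 by limma). P4ha1, a subunit of prolyl 4-hydroxylase, was the higher one, with 12.9, 16.0 and 16.3 FPKM in Norad-/- spleen and 8.67, 10.2 and 12.9 FPKM in Norad+/+ spleen. The most abundant of the list, Ppib and P4hb, had log2 fold changes of -0.01 and -0.17. In brain 1 of 20 was higher, the chaperone gene Fkbp10, and 0 were lower.

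Among genes for procollagen processing and crosslinking, 1 of 9 in spleen was higher and 1 lower at an unadjusted p under 0.05. These were Lox, lysyl oxidase, at 2.10, 2.50 and 1.95 FPKM in Norad-/- spleen and 1.30, 1.67 and 1.30 FPKM in Norad+/+ spleen, and Pcolce2, an enhancer of propeptide cleavage, at 2.04, 1.48 and 1.55 FPKM in Norad-/- spleen and 2.298, 2.46 and 2.74 FPKM in Norad+/+ spleen. In brain 1 of 8 was higher, the lysyl oxidase relative Loxl3, and 0 were lower. Of the collagen receptors, 1 of 11 in spleen was lower, the platelet receptor Gp6, and 0 of 7 in brain passed that mark in either direction. Itgb1, the shared beta chain of collagen-binding integrins, was at 75.6, 71.2 and 79.8 FPKM in Norad-/- spleen and 84.1, 80.4 and 98.4 FPKM in Norad+/+ spleen. It was the most abundant receptor gene in both tissues. Summed genes for processing and crosslinking overlapped between genotypes in both tissues. Summed receptor genes did not, at 113, 109 and 116 FPKM in Norad-/- spleen and 131, 120 and 138 FPKM in Norad+/+ spleen. In brain the receptors were at 49.4, 49.8 and 51.7 FPKM in Norad-/- libraries and 61.6, 56.1 and 53.8 FPKM in Norad+/+ libraries. Of the 7 tested in brain, Gpr56 had the log2 fold change farthest from 0 (-0.965, adjusted p = 0.724 by limma). It stood at 4.51, 4.55 and 4.46 FPKM in Norad-/- brain and 18.9, 12.3 and 2.999 FPKM in Norad+/+ brain, which overlapped. A brain sum without Gpr56 was not taken, so the separation cannot be assigned to the list as a whole.

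Of the proteases and their inhibitors, 3 of 8 were lower in spleen at an unadjusted p under 0.05 and 0 were higher. Mmp9, a gelatinase of neutrophils and macrophages, had 6.46, 5.44 and 8.69 FPKM in Norad-/- spleen and 12.9, 21.2 and 21.6 FPKM in Norad+/+ spleen, and the others were the neutrophil collagenase Mmp8 and the inhibitor Timp1. The more abundant Timp2, Timp3 and Mmp14 had spleen log2 fold changes of -0.05, -0.10 and -0.07. In brain the inhibitor Timp3 was the only 1 of 7 lower at that mark. It stood at 36.8, 40.0 and 40.6 FPKM in Norad-/- brain and 56.4, 59.5 and 44.9 FPKM in Norad+/+ brain (log2 fold change -0.44, adjusted p = 0.690 by limma).

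The fibril-binding proteoglycans and glycoproteins were divided in spleen, with 4 of 12 higher and 1 lower at an unadjusted p under 0.05. Dcn, decorin, had 40.9, 63.2 and 40.8 FPKM in Norad-/- spleen and 36.4, 20.3 and 19.4 FPKM in Norad+/+ spleen (log2 fold change 0.95, adjusted p = 0.187 by limma). The most abundant of the list, Bgn and Sparc, averaged 182 and 98.5 FPKM in spleen, with log2 fold changes of -0.08 and -0.12. Fmod, Ogn and Aspn, proteoglycans of the same family, were the others that were higher. Fn1, fibronectin, on which collagen fibrils are laid down, was lower, with 16.0, 18.9 and 17.2 FPKM in Norad-/- spleen and 25.4, 32.1 and 23.4 FPKM in Norad+/+ spleen (-0.62, adjusted p = 0.152 by limma). In brain 3 of 12 were higher, namely Lum, Ogn and Fmod, and 0 were lower.

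Partners of type IV collagen in the basement membrane were counted at an unadjusted p under 0.05 too. At that mark 1 of 9 was lower in spleen, the laminin chain Lama2, and 0 were higher. The median of the list in spleen was -0.13. Nid1, which links laminin to type IV collagen, had 14.5, 17.3 and 15.4 FPKM in Norad-/- spleen and 19.6, 17.4 and 17.3 FPKM in Norad+/+ spleen (log2 fold change -0.20, adjusted p = 0.297 by limma). In brain 1 of 11 was higher, the laminin chain Lama4, and 0 were lower. The brain sums of the list were 49.1, 47.8 and 46.05 FPKM in Norad-/- libraries and 45.7, 45.97 and 44.9 FPKM in Norad+/+ libraries. These groups did not overlap but nearly touched. Of the TGF-beta ligands, receptors and binding proteins, which induce collagen transcription in fibroblasts, 2 of 10 were higher in spleen, Ctgf and Tgfbr1, and 0 of 10 passed that mark in brain. Ctgf had 35.0, 42.5 and 33.8 FPKM in Norad-/- spleen and 25.1, 24.1 and 29.6 FPKM in Norad+/+ spleen (0.50, adjusted p = 0.166 by limma), while the more abundant Tgfb1 and Tgfbr2 were at -0.15 and 0.11. Of the 28 genes with the highest level, 4 per list, 3 were higher and 3 lower in spleen at an unadjusted p under 0.05, and 0 were higher and 1 lower in brain. Of the pathway genes, P4ha1, Fkbp10, Lox, Pcolce2, Loxl3, Gp6, Mmp8, Timp1, Fmod, Ogn, Aspn, Lum, Lama2 and Lama4 were named after their values were seen, and the others by their level.

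Members below 1 FPKM were fitted without the filter for completeness. In brain, Col17a1, a membrane collagen of epithelial anchoring, had 0.253, 0.275 and 0.293 FPKM in Norad-/- brain and 0.246, 0.150 and 0.117 FPKM in Norad+/+ brain (log2 fold change 0.49, adjusted p = 0.752 by limma). In spleen, Col28a1, a beaded filament chain, had 0.984, 0.931 and 0.978 FPKM in Norad-/- spleen and 0.783, 0.553 and 0.516 FPKM in Norad+/+ spleen (0.59, adjusted p = 0.255 by limma). Col6a6 in spleen had 0.147, 0.162 and 0.163 FPKM in Norad-/- libraries and 0.116, 0.115 and 0.0832 FPKM in Norad+/+ libraries (0.33, adjusted p = 0.289 by limma). The remaining low members had an unadjusted p of at least 0.05 in that fit, apart from Col9a1 in spleen, which could not be fitted. At these levels few reads stand behind a value.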

How the data were processed

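Poly(A)-selected RNA from brain and spleen was read in 12 libraries (3 per genotype and tissue). Reads passed by NGS QC Toolkit were mapped by the authors with TopHat2 2.0.12 on GRCm38, and unique alignments were kept. The deposited values are FPKM made with StringTie 1.2.2, per the submitters' processing notes. The authors' own comparison rested on featureCounts 1.4.6 and edgeR 3.8.6 and was not used. The annotation and the use of strand in the FPKM step are not given in the sources used here, so overlapping genes on opposite strands (Col4a1 with Col4a2, Col9a3 with Tcfl5, Col10a1 with Nt5dc1, Col18a1 with Slc19a1) are uncertain. The tables held 0 value columns of no sample. The smallest steps between FPKM values gave an estimate of depth, and 43.9% to 48.9% of low values were whole reads within 2%, too few to recover counts, so no count test was run.

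FPKM were tested as log2(FPKM + 0.1), which understates changes of low genes, with limma 3.58.1 in R 4.3.3 and a variance trend, two-sided, over all genes averaging at least 1 FPKM. P was adjusted by Benjamini-Hochberg over all of them at a threshold of 0.05. P-values measure the spread between 3 mice per group. Members described singly were the top 8 by level in each tissue, those with an unadjusted p under 0.05 or with groups that did not overlap, and their partner chains. Up to 4 genes per pathway list were named by level. The members and lists were chosen with earlier results of these data known. Steps were tested on simulated data. Coordinates and UTRs came from GENCODE M21 and promoters from RefSeq. Python 3.11.15, pandas 2.3.3, numpy 2.4.6 and matplotlib 3.10.9 were used. Alternatives were other pseudocounts (0.01 and 1), filters (none, 0.1 and 5 FPKM), scalings, variance models, a replicate block and leaving out each library. Leaving out both brain replicates 3 was added after the data were seen.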

Additional observations from a re-analysis of the deposited data

Results flagged for a closer look

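Col27a1, a fibril-forming collagen gene, is listed because its genotypes were separated in opposite directions in the 2 tissues. Every Norad-/- brain library lay below every Norad+/+ brain library (2.73 to 2.92 FPKM against 2.93 to 3.59 FPKM), whereas every Norad-/- spleen library lay above every Norad+/+ spleen library (4.70 to 5.93 FPKM against 4.24 to 4.62 FPKM). The spleen difference minus the brain difference was 0.42 on the log2 scale (SE 0.16, adjusted p = 0.288 by limma over 10481 genes), so the difference between tissues did not pass the adjusted threshold. It lay between 0.31 and 0.55 under the alternatives, and the brain groups nearly touched.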

How the results depend on the processing

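Under every alternative run, 0 members were called in brain, spleen or the interaction, and the smallest adjusted p of a member was 0.249 in brain (both replicates 3 left out), 0.0647 in spleen (replicate block) and 0.0708 in the interaction (without Norad+/+ brain replicate 3). Of 543 values of the 32 results for single members, 14 changed sign, and 25 of the 32 results never did. The brain count of members at an unadjusted p under 0.05 (2 in the report) was 1 with a mean of at least 5 FPKM, 1 after quantile normalization, 11 with both replicates 3 left out, and 0 to 11 with 1 library left out. With both replicates 3 left out, 748 of 13051 genes were higher and 947 lower at that mark. The spleen count (7) was 3 with a mean of at least 5 FPKM, where fewer genes are tested, and 4 to 7 with 1 library left out. The spleen median over members (-0.09) turned to 0.11 with a mean of at least 0.1 FPKM, which adds 15 low members, to 0.0266 after rescaling to TPM and to 0.0223 after quantile normalization. Rescaling to TPM moved the spleen median of all genes from -0.02 to 0.10 and the higher share of genes at an unadjusted p under 0.05 from 35.4% to 57.2% (56.5% after quantile normalization). Under TPM the spleen log2 fold change was 0.0042 for Col1a1 and 0.0218 for Col1a2, -0.37 for Col4a1, and Col4a2 (-0.20), Col5a2 (-0.20) and Col7a1 (-0.22) missed an unadjusted p of 0.05, each smaller in size by over 1.5 times than in the report; after quantile normalization Col5a2 (-0.18) and Col7a1 (-0.18) missed it too. In brain, Col18a1 was -0.0317 after quantile normalization and -0.12 with both replicates 3 left out, and Col9a3 was then 0.0663. With 1 library left out, brain values ranged from -0.10 to 0.10 for Col18a1, -0.0018 to 0.26 for Col4a2, -0.14 to 0.24 for Col6a2 and -0.45 to 0.18 for Col9a3, and spleen values from -0.0875 to 0.0662 for Col3a1. The causes were not tested. Over all genes, calls numbered 2 in brain and 4 in spleen, against 25 with both brain replicates 3 left out and 93 without Norad-/- spleen replicate 3. Replicate numbers were not taken as pairs in the main fits. Correlations of same-numbered deviations were 0.06, 0.07 and 0.11 in brain and 0.34, -0.15 and 0.29 in spleen. Those of other-numbered deviations ran from -0.09 to 0.04 in brain and from -0.48 to 0.36 in spleen. Whether the numbers pair the samples was not tested. With the replicate block 0 members and 1 gene were called in each tissue. In spleen 5 members were then lower at an unadjusted p under 0.05, against 1938 of 12397 genes. Low members rest on few reads.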
